A study of Mus musculus with 4 samples.

Results

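The locus of Malat1 and Neat1 on mouse chromosome 19 was examined for binding of Bach1, Bach2 and Mafk. Its members were chosen by position: every deposited peak whose summit lies in a window of 80 kb, from 5.78 to 5.86 Mb of chromosome 19 in the mouse build mm9. This gave 15 of 7017 peaks, of which 10 came from the 3873 Bach1 peaks, 4 from the 1385 Bach2 peaks and 1 from the 1759 Mafk peaks. The locus was picked because Bach1 peaks follow each other there, so their number and crowding are given as a description without a test. All libraries came from chromatin immunoprecipitation and sequencing (ChIP-seq) in the M1 line of mouse myeloid leukemia cells, which received no stimulation or treatment. There was 1 library for Bach1 (in-house antibody A1-6), 1 for Bach2 (in-house antibody Bach2N2) and 1 for NF-E2 p18, whose title reads Mafk (commercial antibody). Input DNA, made with no antibody, is a further sample and was not analysed here. With 1 library per factor, no difference has a replicate check.

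Malat1 and Neat1 are long noncoding RNAs that stay in the nucleus. Malat1 gathers in nuclear speckles, bodies rich in splicing factors, and Neat1 is the scaffold of paraspeckles, bodies that hold RNA-binding proteins. Bach1 and Bach2, a pair of related repressors of transcription, bind DNA as dimers with small Maf proteins such as Mafk. Their sites, known as Maf recognition elements, contain a core like that bound by AP-1. Bach1 also binds heme, which lowers its hold on DNA, and is best known for repressing heme oxygenase and other stress response genes.

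In the RefSeq gene table of build GRCm38.p6, used here for names and order only, Malat1 and Neat1 follow each other with no protein-coding gene between them. The one entry listed between them in order of start is Mascrna, a small RNA cut from the end of the Malat1 transcript. An mm9 annotation was not used here, so no peak is assigned to a gene, a promoter or an intergenic stretch, and that the window holds both genes is taken from the definition of the locus.

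The 1 promoter window of the pair that the RefSeq table lists is that of Malat1. It is shown as the sequence at the start of a gene the locus is named for, from build GRCm38.p6 on the minus strand, 5′ to 3′, with 250 bases before the start in lower case and the first 50 bases of the transcript in capitals:
Malat1: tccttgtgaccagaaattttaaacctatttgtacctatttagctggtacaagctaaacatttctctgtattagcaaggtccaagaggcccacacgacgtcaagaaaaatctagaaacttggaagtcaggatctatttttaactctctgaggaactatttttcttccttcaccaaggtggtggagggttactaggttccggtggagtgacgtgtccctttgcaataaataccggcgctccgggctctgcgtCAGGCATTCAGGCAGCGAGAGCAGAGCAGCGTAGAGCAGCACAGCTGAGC
These 300 bases were searched on both strands for 2 patterns related to Maf recognition elements, which can overlap each other. The AP-1-like core TGANTCA had 0 matches, and 7.81% of the 32851 promoter windows in the table hold it. The antioxidant response core TGACNNNGC had 0 matches (12.4% of windows hold it). No match says only that these letters are not in this window.

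The Bach1 peaks did not cover the locus evenly. With successive summits of a group at most 10 kb apart, they lay in a group of 4, a single peak and a group of 5. The strongest peak of each group was at the outer end. This grouping depended on the distance allowed: at most 5 kb split the group of 4 into 2 and 2, and at most 20 kb joined it to the single peak. Each peak is described by its pileup, the number of overlapping ChIP fragments at the summit, and by its fold enrichment, the pileup over the control background as the authors' peak caller gave it. The 2 outer summits, at 5792222 and 5850282, were 58.1 kb apart and had the highest fold enrichment and pileup of the 10. The 8 peaks between them had a fold enrichment of 2.25 to 7.25 and a pileup of 34 to 105 fragments.

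The first outer peak, at chr19:5791954-5792459, had a pileup of 110 fragments and a fold enrichment of 12.5, higher than 93.0% of the Bach1 list. The other outer peak, at chr19:5849870-5850545, had a pileup of 244 fragments and a fold enrichment of 17.1, which ranked 109 of 3873. At 676 bp it was also the longest of the Bach1 peaks in the locus, against a median of 349 bp over the list. A peak at chr19:5848050-5848508 was next, with a pileup of 105 fragments and a fold enrichment of 7.25.

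The other 7 Bach1 peaks were weak in fold enrichment, between 2.25 and 4.08, and 5 of these were in the lowest of 4 equal groups of the list by fold enrichment. The weakest, at chr19:5803417-5803965, had a pileup of 54 fragments and a fold enrichment of 2.25, higher than only 2.17% of the list. It was followed by chr19:5845225-5845846, with a pileup of 47 fragments and a fold enrichment of 2.74, and by chr19:5802418-5802751, with 56 fragments and 3.01. These peaks were close in height to the median Bach1 peak, which had a pileup of 52 fragments. The single peak in the middle, at chr19:5818050-5818277, was 228 bp long, 1 bp above the shortest length in the list (227 bp), with a pileup of 62 fragments and a fold enrichment of 3.33. The remaining 3 peaks, with summits at 5793423, 5846751 and 5848998, had pileups of 39, 65 and 34 fragments and a fold enrichment of 3.48, 4.08 and 3.36.

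**Figure D1:**
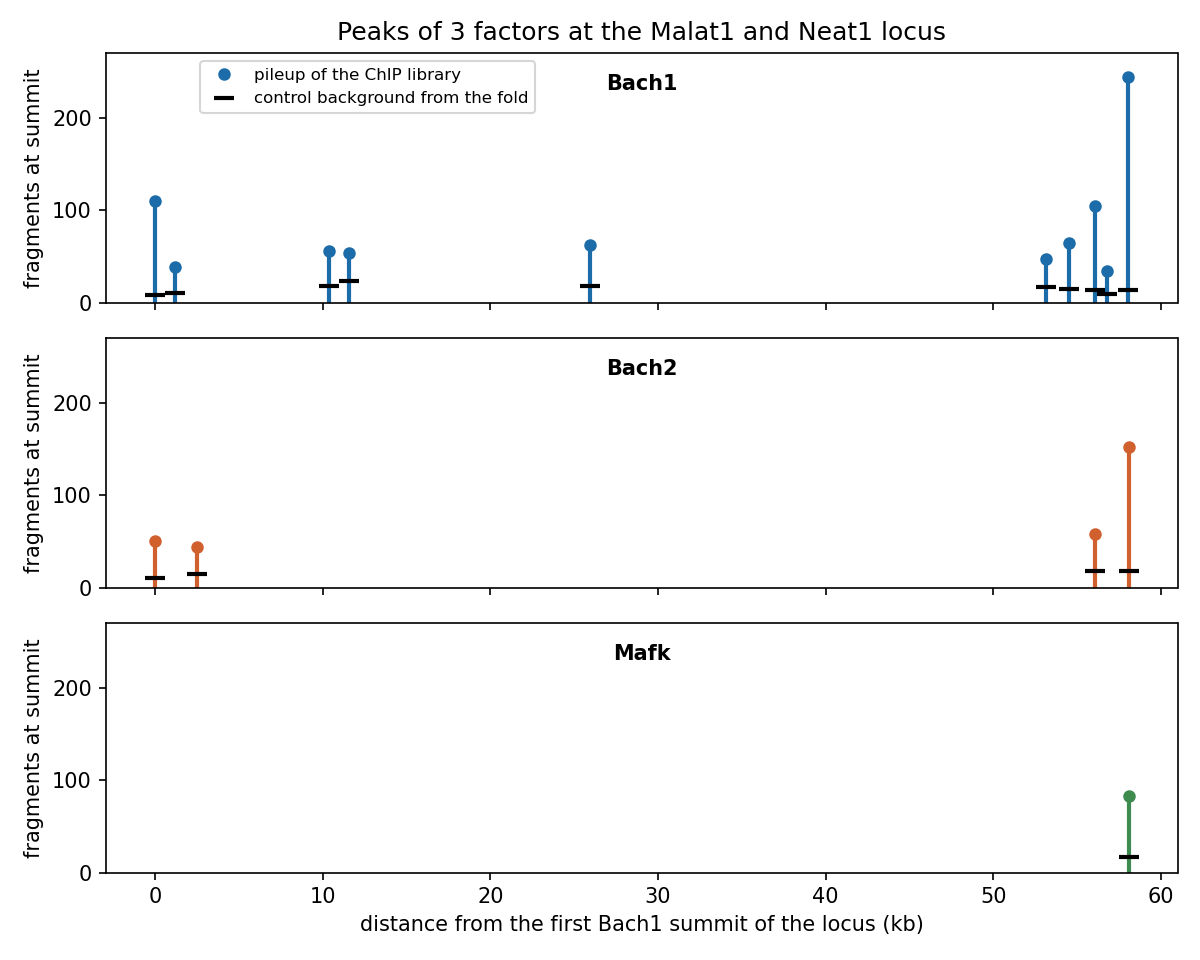
Pileup at the summit in fragments (y axis, points on lines) of each locus peak against its distance in kb from the first Bach1 summit (x axis), for Bach1, Bach2 and Mafk from top to bottom. Short black bars give the control background computed from pileup and fold enrichment. The outermost Bach1 peaks reach 110 and 244 fragments, and the 1 Mafk peak (83 fragments) stands at the outer end where Bach1 and Bach2 are highest.

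Most successive Bach1 summits of the locus stood about 1 kb apart. Of the 9 distances between successive Bach1 summits, 6 were between 726 and 1521 bp. The 3 others were 9.18 kb, inside the group of 4, and 14.4 and 27.2 kb, on either side of the single peak. The median distance was 1344 bp, whereas successive Bach1 summits across the genome had a median distance of 222 kb, and 185 of 3850 such distances, or 4.81%, were at most 2 kb. The peaks remained separate calls, with 208 to 1006 bp between the end of a peak and the start of the next at these 6 distances and 8821 bp at the other one inside the group of 4. Together the 10 Bach1 peaks covered 4758 bp, or 5.95% of the window.

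The next peaks on either side of the locus were nearer for Bach1 than for Bach2 and Mafk, which have shorter lists. The nearest Bach1 summits outside the locus were 67.6 kb before its first and 63.3 kb after its last Bach1 summit. Their fold enrichment was 2.74 (pileup 47) and 4.92 (pileup 48). Both distances were below the median of 222 kb between successive Bach1 summits across the genome, and no such median was computed for Bach2 and Mafk. The nearest Bach2 summits outside were 799 kb before and 447 kb after the Bach2 peaks of the locus, with a fold enrichment of 5.76 (pileup 72) and 6.01 (pileup 44). The nearest Mafk summits were 1357 kb before and 1708 kb after, with 7.47 (pileup 47) and 3.46 (pileup 65). The locus held 10 of the 151 Bach1 peaks of chromosome 19 (6.62%), 4 of its 53 Bach2 peaks (7.55%) and 1 of its 55 Mafk peaks (1.82%).

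Bach2 had 4 peaks, at the 2 ends of the chain. Of these, 3 lay on the 3 strongest Bach1 peaks of the locus. At the first outer site the Bach2 peak at chr19:5792064-5792333 had a pileup of 50 fragments and a fold enrichment of 4.39, near the median of the Bach2 list (4.42). At the next strongest Bach1 peak, that of 105 fragments, the Bach2 peak at chr19:5848137-5848413 had 58 fragments and 3.10. The highest, at chr19:5850058-5850521, had 152 fragments and 8.12, above 90.7% of the Bach2 list.

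The remaining Bach2 peak, at chr19:5794630-5794865, lay on no Bach1 peak. It had a pileup of 44 fragments, the lowest of the 4, and a fold enrichment of 2.77, higher than 6.35% of the Bach2 list. Its summit was 1300 bp from the nearest Bach1 summit. The 205 Bach2 peaks of the whole list without a Bach1 peak had a median fold enrichment of 3.53 and a median pileup of 52 fragments. A list without a peak at a site does not show that the factor was absent there.

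With all deposited peaks, the share of Bach1 peaks on Bach2 at the locus was close to that of the list. An overlap needed a minimum of 1 bp. Bach2 was called at 3 of the 10 Bach1 peaks, or 30% (exact binomial 95% interval over peaks 6.67 to 65.2), and at 30.3% of the whole Bach1 list. Bach1 was called at 3 of the 4 Bach2 peaks, or 75% (19.4 to 99.4), and at 85.2% of the Bach2 list. Stricter lists changed the first share: with a fold enrichment of at least 4 it was 2 of 4 peaks (30.6% of the list), and with lists of equal length by pileup 3 of 4 (59.2% of the list). With so few peaks these intervals are wide, cover counting error only, and treat neighbouring peaks as independent, which they are not.

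The 3 Bach1 peaks with Bach2 were those in the highest of the 4 equal groups of the Bach1 list by fold enrichment, where 66.6% of all Bach1 peaks overlapped Bach2. None of the 7 others did: 5 were in the lowest group, where 8.77% of the list overlapped Bach2, and 2 in the next, where 18.8% did. The group between these and the highest, with 26.9%, held no Bach1 peak of the locus. Neither fold enrichment nor pileup overlapped between the sets: the 3 with Bach2 had pileups of 105, 110 and 244 fragments, and the 7 without had 34 to 65. Outside the locus, Bach1 peaks with Bach2 had a median pileup of 83 fragments (n = 1169) and those without 45 (n = 2694). There the sets overlapped widely, with pileups of 21 to 427 fragments with Bach2 and 17 to 454 without. Fold enrichment there was 1.78 to 45.3 with Bach2 and 1.36 to 18.5 without.

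Mafk, the dimer partner, had a single peak in the locus, on the strongest site of both Bach factors. The peak at chr19:5850145-5850468 had a pileup of 83 fragments, above 89.3% of the Mafk list, and a fold enrichment of 4.62, above 42.3% of it. It thus overlapped 1 of 10 Bach1 peaks (10.8% of the Bach1 list lies on Mafk) and 1 of 4 Bach2 peaks (21.7% of the Bach2 list). Over the whole Mafk list, 23.9% of the peaks overlapped Bach1 and 17.2% overlapped Bach2. The overlap with the 676 bp Bach1 peak was lost under a reciprocal rule of 50%, because the Mafk peak was 324 bp long and lay inside it.

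At shared sites the summits nearly coincided. The Bach1 and Bach2 summits were 12, 2 and 28 bp apart, from the first site to the last, against a median of 22 bp at the 1169 shared sites elsewhere. At the last site the Mafk summit, at 5850319, was 9 bp from that of Bach2 and 37 bp from that of Bach1. The median elsewhere was 19 bp for each of these pairs, so the Mafk and Bach1 summits were farther apart than usual. At each of the 3 sites the Bach2 peak lay wholly inside the Bach1 peak, as it did at 67.5% of the sites elsewhere. At the last site the Mafk peak lay inside both. This too was common elsewhere: the Mafk peak lay inside the Bach1 peak at 74.6% of the sites these factors share. It lay inside the Bach2 peak at 63.5% of the sites shared by Bach2 and Mafk.

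The pileup ratio of Bach1 over Bach2 was above the median of the shared sites elsewhere at all 3 sites. The locus was picked for its Bach1 peaks, so this is a description only. The pileup of Bach1 was 2.20 times that of Bach2 at the first site, a ratio higher than at 94.4% of the shared sites elsewhere. It was 1.81 times at the second (higher than at 82.5%) and 1.61 times at the last (higher than at 74.2%), and the median elsewhere was 1.23. With the control background subtracted from both pileups the 3 ratios were 2.59, 2.29 and 1.72, against a median of 1.34. At the last site, Bach1 had 2.94 times the pileup of Mafk (median elsewhere 1.71) and Bach2 had 1.83 times (1.33). These ratios compare single libraries of unknown read number, so they rank sites within a pair of libraries and do not compare the amounts of the factors bound.

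The control background was higher at most locus summits than at the typical peak. It was computed as (pileup + 1) / fold enrichment - 1 and is given as a multiple of the lowest value in the same list. At the 10 Bach1 summits it was between 1.88 and 5.61 times the lowest, with a median of 3.44, and the median of the whole Bach1 list was 2.47. The 3 highest values belonged to the summits at 5803758 (5.61), 5802605 (4.29) and 5818168 (4.29), in the inner part of the locus. The lowest, 1.88, was at the first outer site.

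Height and fold enrichment therefore rank the Bach1 peaks of the locus differently. By pileup, 7 of 10 were above the median of their list, and by fold enrichment 3 of 10 were. By length 8 of 10 were above the median, and by control background also 8 of 10. Background and fold enrichment are tied by arithmetic, since the first is computed from the second. The part of the control in the low fold enrichment of the inner peaks was not tested.

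The background was alike in the 3 lists at the same site. The series has a single input sample, and if it was the control for all 3 lists, this likeness follows from the shared control. The values are therefore not taken as separate measurements. At the last site it was 3.18 times the lowest in the Bach1 list, 3.18 in the Bach2 list and 3.19 in the Mafk list, and at the first site 1.88 for Bach1 and 1.89 for Bach2. For Mafk a value of 3.19 was high in its list, above 89.8% of the peaks, where the median was 1.34. In the Bach1 and Bach2 lists the values of that site were above 66.4% of the peaks in each.

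**Figure D2:**
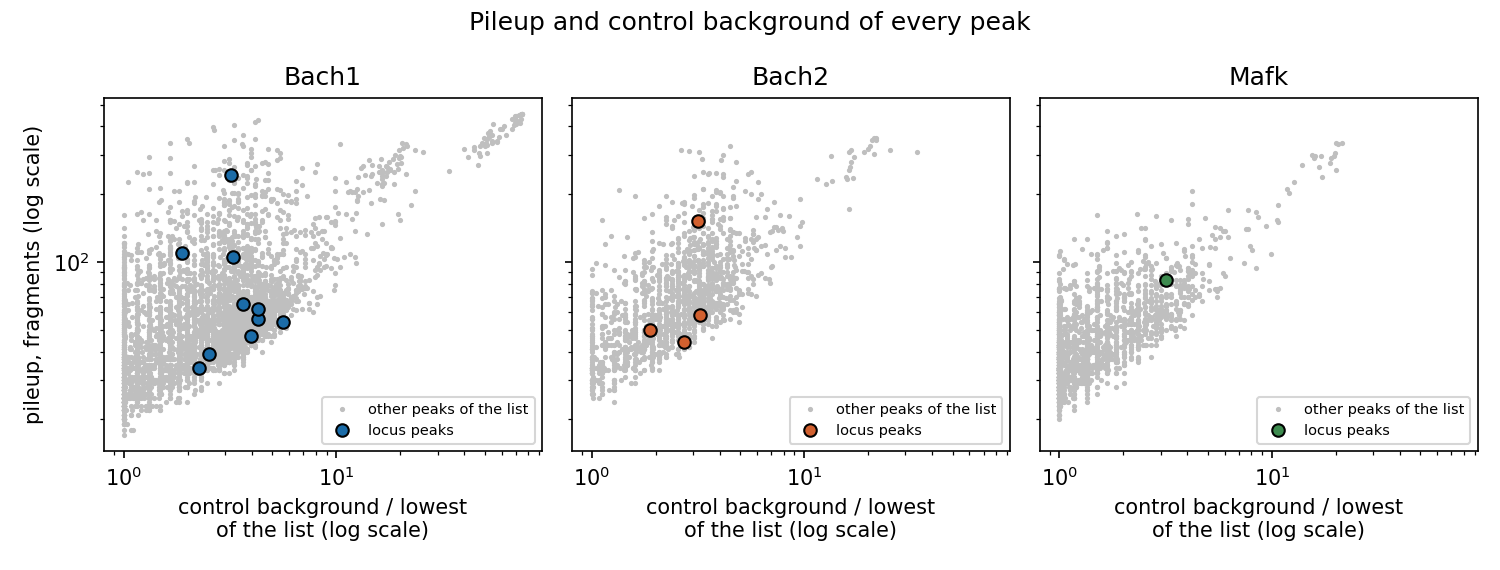
Pileup in fragments (y axis, log scale) against the control background as a multiple of the lowest in the list (x axis, log scale) for every peak, in 1 panel per factor; grey dots are peaks elsewhere and large coloured points the locus peaks. The 3 Bach1 peaks on Bach2 peaks, with 105 to 244 fragments, stand above the other 7, which lie at 34 to 65 fragments.

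By crowding, the locus was among the densest in the Bach1 list, which is how it was chosen. With successive summits at most 10 kb apart, its largest group, the 5 peaks from chr19:5845225-5850545, ranked 4 of 3504 groups by number of peaks. At most 50 kb apart, all 10 peaks formed 1 chain, which ranked 5 of 2997. At most 20 kb apart, the largest groups at the locus again held 5 peaks, and 7 groups of 3347 were larger, with 14 at least as large. The genome was also divided into separate windows of the length of the locus, placed to hold the most Bach1 summits. Of 2846 such windows with a summit, 75.9% held 1 and 5 held 10 or more.

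**Figure D3:**
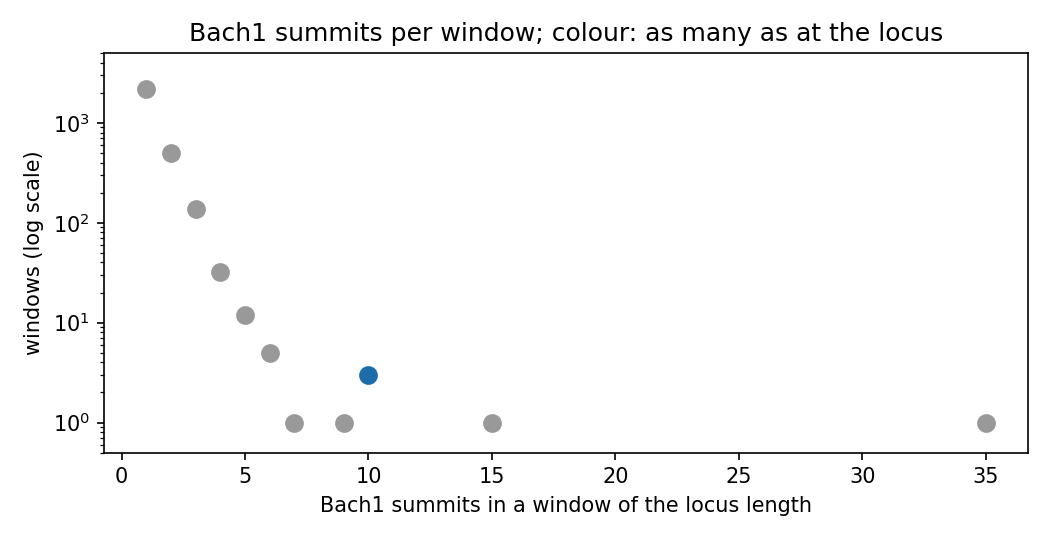
Number of separate windows (y axis, log scale) by the number of Bach1 summits each holds (x axis), for windows of 80001 bp that hold at least 1; the mitochondrial genome is left out. The coloured point marks the 3 windows with 10 summits, of which the locus is 1; 2 windows hold more.

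In the largest groups elsewhere, Bach2 overlapped a larger part of the Bach1 peaks on chromosome 13 than at the locus, and none on chromosome 9. The 3 largest groups elsewhere with summits at most 10 kb apart held 35 peaks at chr9:3000115-3038220, 15 at chr13:23622749-23677903 and 8 at chr13:23830696-23856080. In both groups on chromosome 13 every Bach1 peak lay on a Bach2 peak (15 of 15 and 8 of 8). In the group of 5 at the locus 2 did, and in its group of 4 only 1 did. The chromosome 13 groups held no peak on a Mafk peak, and the locus group of 5 held 1.

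In strength, the peaks of the locus were also more unequal than those on chromosome 13. Fold enrichment ran from 2.74 to 17.1 in the locus group of 5 and from 2.25 to 12.5 in its group of 4, whereas it ran from 2.19 to 7.10 and from 3.26 to 5.46 in those on chromosome 13. Median pileups were close, at 65 and 55 fragments in the locus and 62 and 63 on chromosome 13, and so was the median control background, at 3.26 and 3.40 times the lowest in the locus and 3.13 and 3.38 on chromosome 13. The group on chromosome 9 had a background of 57.2 times the lowest, a median pileup of 375 fragments, a median fold enrichment of 1.52 and no overlap with Bach2 or Mafk. Over whole windows of equal length, chosen for naming after their values were seen, 3 windows on chromosome 13 had 15 of 15, 10 of 10 and 10 of 10 Bach1 peaks on Bach2, against 3 of 10 at the locus. Each window is 1 place in 1 library, so these differences were not tested.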

How the data were processed

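The members of the locus and the comparisons were chosen with earlier results of these data known. Per the labels' protocols, paired reads of 51 bases were sequenced. Build mm9 and the tools MACS2 2.1.0, BWA 0.7.10 and CASAVA 1.8 are listed in the submitters' processing notes, with no settings. The 3 deposited peak lists, 1 library each, give per peak a pileup (signal: fragments at the summit, whole numbers at all peaks) and a fold enrichment (ratio to the control background). Per the file headers' columns no p or q is given; peak names carry q 0.01. Read numbers per library are unknown from the lists. Positions count from 1, as the deposited lengths show.

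Overlaps, spacing, chains, ranks within each list and the background (pseudocount 1) were computed in Python 3.11.15 with pandas 2.3.3 and SciPy 1.17.1, and overlap and chain code was tested on simulated peaks. Overlap rules, stricter peaks (fold at least 4 or pileup at least 50), pileup as the measure, lists of equal length and chain distances were varied. Named were all members, and the 3 largest groups of Bach1 peaks elsewhere. Promoter sequence is from RefSeq, GRCm38.p6; 1 of the 2 genes matched. Genes on either side of the pair are not reported here. No test was made, for want of replicates.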

Additional observations from a re-analysis of the deposited data

How the results depend on the processing

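Of 56 alternative values, 45 stayed within 1.5 times the main count or, for shares, within its binomial interval, and 11 did not. The values have no sign, so a change of direction was not defined for them. With a fold enrichment of at least 4, 4 Bach1 and 2 Bach2 peaks were left in the locus. The Bach2 share overlapping Bach1 was then 100%, which rests on only 2 peaks. Without the filter this share was 85.2% over the whole Bach2 list, and its list value under the filter is not given here. With lists of equal length by pileup, 3 of the 4 Bach1 peaks left, or 75%, lay on a Bach2 peak, against 59.2% of all Bach1 peaks in those lists. A reciprocal overlap of 50% left 0% of the Bach1 peaks on Mafk and 0% of the Mafk peaks on Bach1. The Mafk peak, at 324 bp, was a little shorter than 50% of the 676 bp Bach1 peak it lay in. Measured from the end of a peak to the start of the next, the median distance was 731 bp. By pileup, 7 Bach1 peaks and 1 Mafk peak were above the median of their list, instead of 3 and 0 by fold enrichment. The side of the median on which most Bach1 peaks and the Mafk peak lay thus changed with the measure. With summits at most 50 kb apart the largest chain held 10 peaks, and with at most 20 kb the locus ranked 8 by its largest chain, in a tie of 7. A reciprocal overlap left no site shared by Bach1 and Mafk, so it gave no summit distance for that pair. No paired analysis was possible because the 3 lists come from single libraries, and leaving out a replicate was likewise not possible. At this depth, which is unknown in reads, weak sites may fall short of the calling threshold in 1 list and pass it in another.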
